A study of Mus musculus with 24 samples.

Results

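The 9 genes described here carry glutamine into the cell or turn it over: the transporters Slc38a1, Slc38a2, Slc38a6 and Slc1a5, and the enzymes Glul, Glud1, Got1, Got2 and Gpt2. They were listed by name, all 9 were measured, and they are 9 of the 22180 genes tested. Where a gene had several sets of probes, the set with the highest mean signal stood for it. RNA came from primary cells of the quadriceps muscle of ICR mice, an outbred strain, grown out and differentiated toward myotubes, the multinucleate fibres of cultured muscle, and was read on 24 single-colour arrays. Control cultures came from offspring of freely fed dams, and undernourished cultures from offspring of dams given 50% of the control food from gestation day 12.5 until birth, with litters of both groups set to 8. The age of the offspring is not given in the sources used here, and no transgene or deletion is named for any group. Cells of each maternal diet were kept in standard differentiation medium, with 5.5 mM glucose and 2% serum, or overnight in a limited medium. The latter contained glutamine at 1 mM and carnitine at 0.5 mM, with glucose lowered to 0.5 mM and serum to 1%. This gave 4 groups of 6 arrays. How much glutamine the standard medium held is not given in the sources used here, and glucose, carnitine, serum and perhaps glutamine changed together, so the parts of the medium cannot be told apart. Each of 12 culture numbers labels 1 standard and 1 limited array, and the labels do not say whether a number is an animal, a litter or a flask.

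Glutamine enters muscle cells through sodium-coupled carriers and obligate exchangers and is made inside the cell by glutamine synthetase. Once deamidated to glutamate, its carbon reaches the tricarboxylic acid cycle as 2-oxoglutarate, through glutamate dehydrogenase or through aminotransferases that pass the amino group to oxaloacetate or pyruvate. Skeletal muscle is a main source of circulating glutamine and alanine, and several carriers of neutral amino acids are known targets of the amino acid response.

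The label was checked against marker lists, as mean log2 signals per array. The means of 14 myotube genes lay between 11.59 and 12.17, those of 7 satellite cell genes between 9.40 and 10.06, of 6 mural genes between 6.73 and 7.57, of 8 fibroblast genes between 5.44 and 7.61 and of 7 glial genes between 5.85 and 7.41. Endothelial, leukocyte and adipocyte lists lay between 4.48 and 5.42. Such means depend on the probes chosen, so they neither rank cell types nor give shares of cells. In bulk cultures fewer cells of a type and less RNA per cell cannot be told apart. Control culture 16 and undernourished culture 20 stood apart by their fibroblast genes (7.48 and 7.55, against 5.53 to 6.39 in the other cultures). They stood apart by their mural genes too (7.35 and 7.56, against 6.79 to 6.95), and culture 20 also by its glial genes (7.41, against 5.94 to 6.54). In undernourished cultures 9 and 12 the arrays of a number did not deviate together as they did in the other 10 numbers. Results are given without each of these pairs of cultures below.

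Over both maternal diets, 3 of the 9 genes changed in limited medium. Slc38a2, a sodium-coupled carrier of small neutral amino acids known to be induced when amino acids run short, rose by 0.57 ± 0.09 on the log2 scale (SE, 12 arrays against 12), or 1.48-fold. Got1, the cytosolic aspartate aminotransferase, rose by 0.36 ± 0.09, or 1.29-fold. Slc38a6, a less studied carrier of the same family as Slc38a2, fell by 0.88 ± 0.14, or 1.84-fold. Slc38a1, Slc1a5, Glul, Glud1, Got2 and Gpt2 did not pass the threshold, an adjusted p under 0.05 from limma's moderated test with Benjamini-Hochberg adjustment over all 22180 genes. Of all genes tested, 6.84% were called in this comparison, 3.56% as higher and 3.28% as lower. The median log2 difference was 0.06 over the 9 genes and 0.0052 over all genes tested.

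The promoter windows of the 3 changed genes are shown because each gene's transcript moved with the medium. They run from 250 bases before to 50 bases after the start that RefSeq's promoter table uses, 5′ to 3′ on the gene's strand, from RefSeq (GRCm38.p6), at chr15:96699679-96699978 (minus strand) for Slc38a2, chr12:73286598-73286897 (plus strand) for Slc38a6 and chr19:43524556-43524855 (minus strand) for Got1. For Slc38a6 that start lies inside the gene's span given below, so part of the 250 bases before it is within the gene. Capitals mark a match to TGATGNAA or, on the other strand, TTNCATCA, the core letters of the C/EBP-ATF response element bound by ATF4 and its partners, and no other motif was searched.
Slc38a2: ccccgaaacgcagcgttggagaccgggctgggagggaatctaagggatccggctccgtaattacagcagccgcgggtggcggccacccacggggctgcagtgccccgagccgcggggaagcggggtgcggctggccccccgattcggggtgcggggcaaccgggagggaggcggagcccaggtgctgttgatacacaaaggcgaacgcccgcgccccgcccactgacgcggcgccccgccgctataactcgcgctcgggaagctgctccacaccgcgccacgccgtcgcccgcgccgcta
Slc38a6: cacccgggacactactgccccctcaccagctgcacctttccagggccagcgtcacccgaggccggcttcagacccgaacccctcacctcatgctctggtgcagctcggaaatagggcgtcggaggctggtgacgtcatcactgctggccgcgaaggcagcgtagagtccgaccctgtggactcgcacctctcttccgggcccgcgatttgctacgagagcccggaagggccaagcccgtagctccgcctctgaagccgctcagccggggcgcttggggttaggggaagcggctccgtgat
Got1: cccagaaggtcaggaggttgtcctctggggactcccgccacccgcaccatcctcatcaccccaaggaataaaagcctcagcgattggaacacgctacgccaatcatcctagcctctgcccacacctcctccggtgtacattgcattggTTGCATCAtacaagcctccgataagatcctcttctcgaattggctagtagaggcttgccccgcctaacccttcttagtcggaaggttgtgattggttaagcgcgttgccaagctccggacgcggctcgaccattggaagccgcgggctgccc
Of the 9 genes, 7 had a promoter window, Slc1a5 and Slc38a1 being the others, and Got1 alone held the motif, as TTGCATCA, from 102 to 95 bases before its start. Of 32851 mouse promoter windows of this length, 1304 (3.97%) held it. A match of letters is not evidence of binding, and its absence says only that the letters are not in that window. The Slc38a2 window was 73.0% G and C with 41 CG pairs, that of Slc38a6 66.7% with 26 and that of Got1 57.3% with 18, against medians of 52.7% and 7 over all windows. The windows of Glul (64.3% with 17), Glud1 (81.0% with 51), Got2 (60.0% with 24) and Gpt2 (60.3% with 19), genes not called over both diets, lay above both medians too.

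**Figure D1:**
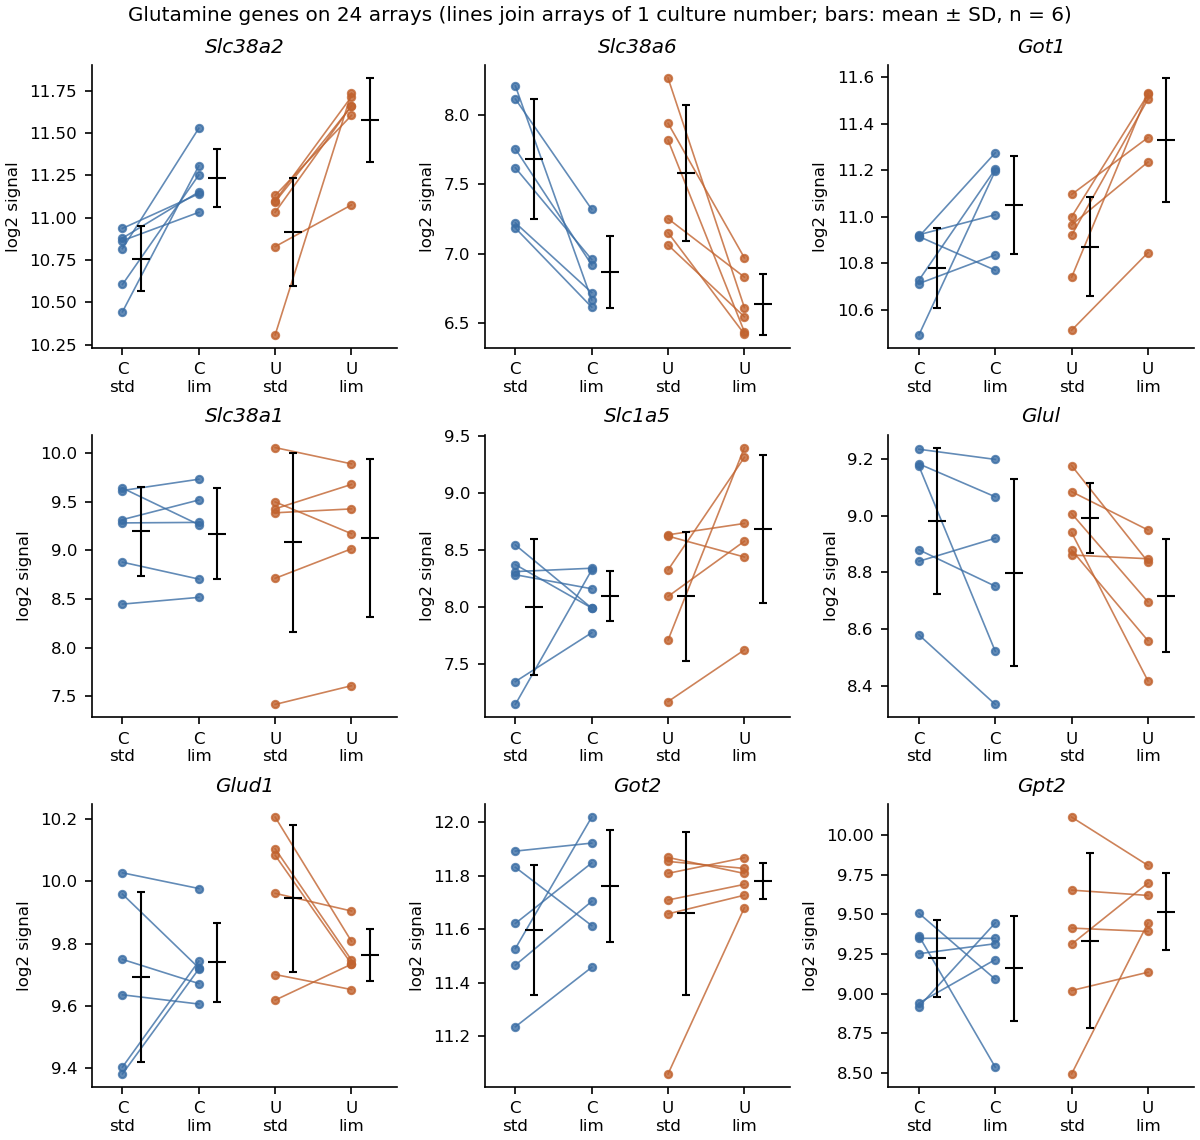
Log2 signal of the 9 genes on 24 arrays, by maternal diet (C control, U undernourished) and medium (std standard, lim limited); lines join the arrays of a culture number, and bars give the mean and SD of 6 arrays. Every line of Slc38a2 goes up and every line of Slc38a6 goes down. Lines of Slc38a1 go up or down by at most 0.38, at levels from 7.42 to 10.06.

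Slc38a2 spans chr15:96687392-96699728 (RefSeq, GRCm38.p6; the build behind the array's probes is not given in the sources used here, so all positions are of genes, not probes). In control cultures its lowest, median and highest log2 signals were 10.44, 10.84 and 10.94 in standard medium and 11.03, 11.20 and 11.53 in limited medium. In undernourished cultures they were 10.31, 11.06 and 11.13 in standard and 11.07, 11.66 and 11.74 in limited medium. The 2 media did not overlap in control cultures, and in undernourished cultures only the limited array of culture 20, at 11.07, fell among the standard ones. From low to high, the group means were 10.76 ± 0.19 in control standard, 10.91 ± 0.32 in undernourished standard, 11.23 ± 0.17 in control limited and 11.57 ± 0.25 in undernourished limited arrays (SD, n = 6). The first neighbours in that order lay within their SD, and the upper ones were apart by more than the larger SD of each pair. The rise was present in 12 of 12 cultures (2.6% of all genes had 1 direction in all 12), from 0.17 in control culture 11 to 1.43 in undernourished culture 9, and its adjusted p was 0.000643 (limma). It was 0.64 ± 0.09 without cultures 16 and 20 (adjusted p = 0.000388) and 0.48 ± 0.09 without cultures 9 and 12 (adjusted p = 0.00593).

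Slc38a6 spans chr12:73286739-73361998. Its lowest, median and highest signals in control cultures were 7.18, 7.69 and 8.21 in standard medium and 6.61, 6.82 and 7.32 in limited medium. In undernourished cultures they were 7.06, 7.54 and 8.27 in standard and 6.42, 6.58 and 6.97 in limited medium. Here the media did not overlap in undernourished cultures, while in control cultures the limited array of culture 5, at 7.32, lay above the standard arrays of cultures 16 and 24. The group means, from low to high, were 6.63 ± 0.22 in undernourished limited, 6.87 ± 0.26 in control limited, 7.58 ± 0.49 in undernourished standard and 7.68 ± 0.43 in control standard arrays (SD, n = 6). Both limited groups lay within an SD of each other, as did both standard groups, and the gap lay between the media. The fall was present in 12 of 12 cultures and ranged from 0.42 to 1.66 in size, with undernourished culture 20 at -0.42 and undernourished culture 4 at -1.66. Its adjusted p was 0.000455 (limma). Without cultures 16 and 20 the difference was -0.96 ± 0.15 (adjusted p = 0.000534), and without cultures 9 and 12 it was -0.88 ± 0.16 (adjusted p = 0.00386).

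Got1 spans chr19:43499752-43524605 and encodes the cytosolic arm of the malate-aspartate shuttle, which moves reducing equivalents into mitochondria. Its lowest, median and highest signals in control cultures were 10.49, 10.82 and 10.92 in standard medium and 10.77, 11.10 and 11.28 in limited medium. In undernourished cultures they were 10.51, 10.94 and 11.10 in standard and 10.85, 11.42 and 11.53 in limited medium. The media overlapped in both kinds of culture. In control cultures the limited arrays of cultures 15 and 16 lay among the standard ones, and in undernourished cultures that of culture 20 did. Group means were 10.78 ± 0.17, 10.87 ± 0.21, 11.05 ± 0.21 and 11.33 ± 0.27 in control standard, undernourished standard, control limited and undernourished limited arrays (SD, n = 6), and only the last step in this order exceeded the larger SD of its pair. Got1 was higher in limited medium in 11 of 12 cultures, control culture 16 being the exception at -0.15, and the adjusted p was 0.0109 (limma). Without cultures 16 and 20 the rise was 0.42 ± 0.07 (adjusted p = 0.00127). Without cultures 9 and 12 it was 0.31 ± 0.10 and no longer passed (adjusted p = 0.0753), so the count of changed genes was then 2 of 9.

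Of the cell type markers, 3 were called in this comparison, in which 6.84% of all genes were. Of 14 myotube genes, Ckm (0.47 ± 0.12, adjusted p = 0.0170, limma), which encodes muscle creatine kinase, and Tnni2 (0.49 ± 0.11, adjusted p = 0.00963), a fast-fibre troponin, rose. Of 7 satellite cell genes, Vcam1 fell (-0.45 ± 0.10, adjusted p = 0.00854), and none of the 8 fibroblast, 7 glial, 7 endothelial, 7 leukocyte, 6 mural or 5 adipocyte genes passed. The mean of the myotube genes ran from 11.65 to 12.06 in control standard, 11.86 to 12.17 in control limited, 11.59 to 12.00 in undernourished standard and 11.74 to 12.08 in undernourished limited arrays. Its average was higher with limited medium, at 12.02 against 11.89 for controls and 11.94 against 11.78 for undernourished cultures. Only cultures 5 (-0.02) and 9 (-0.03) had a lower myotube mean in limited medium, and culture 4 had the largest rise (0.28). Over both diets, 11 of the 14 genes had a positive difference. Neither this shift of the mean nor its part in the changes of Slc38a2, Slc38a6 and Got1 was tested.

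**Figure D2:**
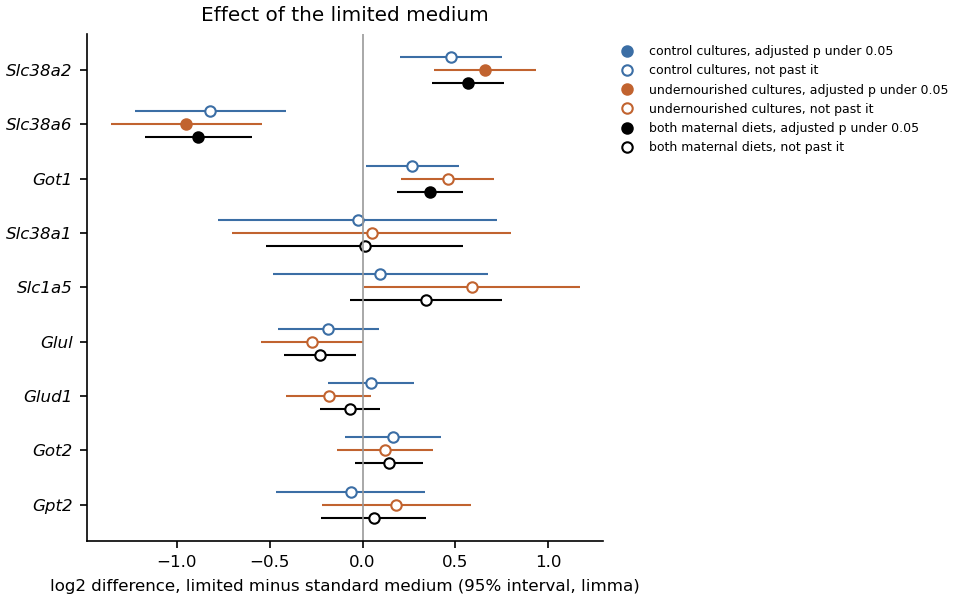
Log2 difference between limited and standard medium for each gene, with limma's 95% interval, in control cultures, undernourished cultures and both; filled points have an adjusted p under 0.05. Filled points over both maternal diets are those of Slc38a2 (0.57), Slc38a6 (-0.88) and Got1 (0.36), and the intervals of Slc38a1 are the widest. All intervals come from a fit without the culture number, so they also hold the spread between cultures.

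Of the other transporters, Slc1a5, the exchanger of neutral amino acids also called ASCT2 (chr7:16781334-16798274), differed most between cultures in its response. Its group means were 8.00 ± 0.59 in control standard, 8.09 ± 0.22 in control limited, 8.09 ± 0.57 in undernourished standard and 8.68 ± 0.65 in undernourished limited arrays (SD, n = 6). Signals ran from 7.14 to 8.54 in control standard, 7.77 to 8.34 in control limited, 7.17 to 8.63 in undernourished standard and 7.62 to 9.39 in undernourished limited arrays. No neighbours in this order were apart by more than the larger SD of their pair. Slc1a5 was higher in limited medium in 8 of 12 cultures, most in undernourished culture 9 (1.69), control culture 5 (1.18) and undernourished culture 4 (0.99), and lowest in control culture 16 (-0.55). The difference over both diets was 0.34 ± 0.20 (adjusted p = 0.350, limma), with a 95% interval from -0.068 to 0.75. A second, dimmer set of Slc1a5 probes differed by 0.30 ± 0.48 (mean and SD over 12 cultures) and was higher in 10 of them.

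Slc38a1, a sodium-coupled glutamine carrier of the same family as Slc38a2 (chr15:96571418-96643438), did not follow the medium. Its group means were 9.20 ± 0.46 in control standard, 9.17 ± 0.47 in control limited, 9.08 ± 0.92 in undernourished standard and 9.13 ± 0.81 in undernourished limited arrays (SD, n = 6), all within an SD of each other. The medium difference was 0.01 ± 0.26 (adjusted p = 0.989, limma), with a 95% interval from -0.52 to 0.54. That fit leaves out the culture number, so the interval also holds the spread between cultures given below.

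The spread of Slc38a1 lay between cultures instead. Culture means ran from 7.51 in undernourished culture 20 to 9.97 in undernourished culture 8, with an SD of 0.66 over 12 cultures, the largest such SD of the 9 genes. Within cultures the SD of the difference between media was 0.23. Both arrays of culture 20, at 7.42 in standard and 7.61 in limited medium, were the lowest of the 24, and the next lowest were those of control culture 11, at 8.45 and 8.52. Culture 20 was also the culture with the highest fibroblast, glial and mural means, and it had the lowest culture mean of Slc1a5 (7.39) and of Got1 (10.68). Control culture 16, at 7.48 close to culture 20 in fibroblast genes, had Slc38a1 signals of 8.88 and 8.71, and culture 11 had a fibroblast mean of 5.84. The part of other cell types in these levels was not tested.

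**Figure D3:**
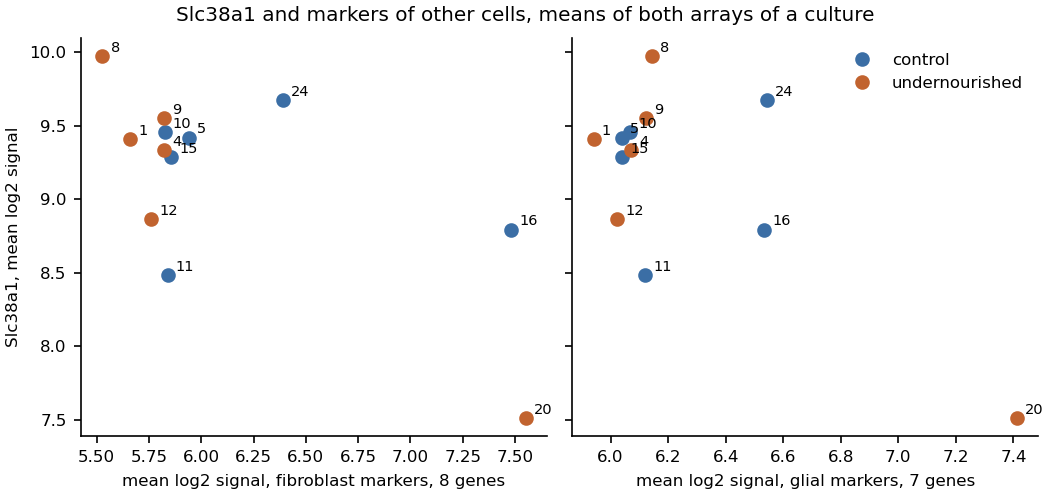
Mean log2 signal of Slc38a1 over both arrays of each of 12 cultures, against the mean of 8 fibroblast genes (left) and of 7 glial genes (right); numbers are culture numbers and colours the maternal diet. Culture 20 lies apart at 7.51 with the highest marker means, 7.55 and 7.41, while culture 16 has a fibroblast mean of 7.48 with Slc38a1 signals of 8.88 and 8.71.

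Among the enzymes, Glul, the glutamine synthetase that makes glutamine from glutamate and ammonia (chr1:153899929-153909723), had lower values in limited medium in 11 of 12 cultures, control culture 5 being the exception. Its group means were 8.98 ± 0.26 in control standard, 8.80 ± 0.33 in control limited, 8.99 ± 0.12 in undernourished standard and 8.72 ± 0.20 in undernourished limited arrays (SD, n = 6). Signals ran from 8.58 to 9.23 and from 8.33 to 9.20 in the control groups, and from 8.86 to 9.18 and from 8.42 to 8.95 in the undernourished groups, so the media overlapped in both. The difference was -0.23 ± 0.09 with an unadjusted p of 0.0227 and an adjusted p of 0.159 (limma), and it did not pass. A block for the culture number changed that call, as given in the last section. The numbers do not pair the arrays for certain. A dim second set of Glul probes, at a mean signal of 4.76, did not share the direction, with a mean difference of 0.030 ± 0.28 (SD over 12 cultures) and lower values in 7 of them. Which set follows the transcript was not tested.

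Glud1, the mitochondrial glutamate dehydrogenase (chr14:34310727-34345033), averaged 9.69 ± 0.27 in control standard, 9.74 ± 0.13 in control limited, 9.95 ± 0.24 in undernourished standard and 9.76 ± 0.09 in undernourished limited arrays (SD, n = 6). The highest signal of each group was 10.03, 9.98, 10.21 and 9.90 in that order, and the lowest 9.38, 9.61, 9.62 and 9.65. Standard arrays thus had the larger spread, a difference that was not tested, and the groups overlapped. The difference between media was -0.07 ± 0.08 (adjusted p = 0.696, limma), with lower values in 9 of 12 cultures.

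The remaining aminotransferases did not pass. Got2, the mitochondrial partner of Got1 (chr8:95864133-95888401), averaged 11.60 ± 0.24, 11.76 ± 0.21, 11.66 ± 0.31 and 11.78 ± 0.07 in control standard, control limited, undernourished standard and undernourished limited arrays (SD, n = 6). Its difference was 0.14 ± 0.09 (adjusted p = 0.389, limma), with higher values in 9 of 12 cultures and the largest in undernourished culture 20 (0.62). A second, dimmer set of Got2 probes gave 0.14 ± 0.25 (SD over 12 cultures) and the same 9 of 12. Gpt2, the mitochondrial alanine aminotransferase, which joins glutamate to pyruvate (chr8:85492576-85528902), averaged 9.22 ± 0.24, 9.16 ± 0.33, 9.33 ± 0.55 and 9.52 ± 0.24 in the same order. Its difference was 0.06 ± 0.14 (adjusted p = 0.864), with 6 cultures higher and 6 lower, from -0.83 in control culture 11 to 0.95 in undernourished culture 9. Got2 and Gpt2 groups overlapped throughout, and no neighbouring group means were apart by more than the larger SD.

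**Figure D4:**
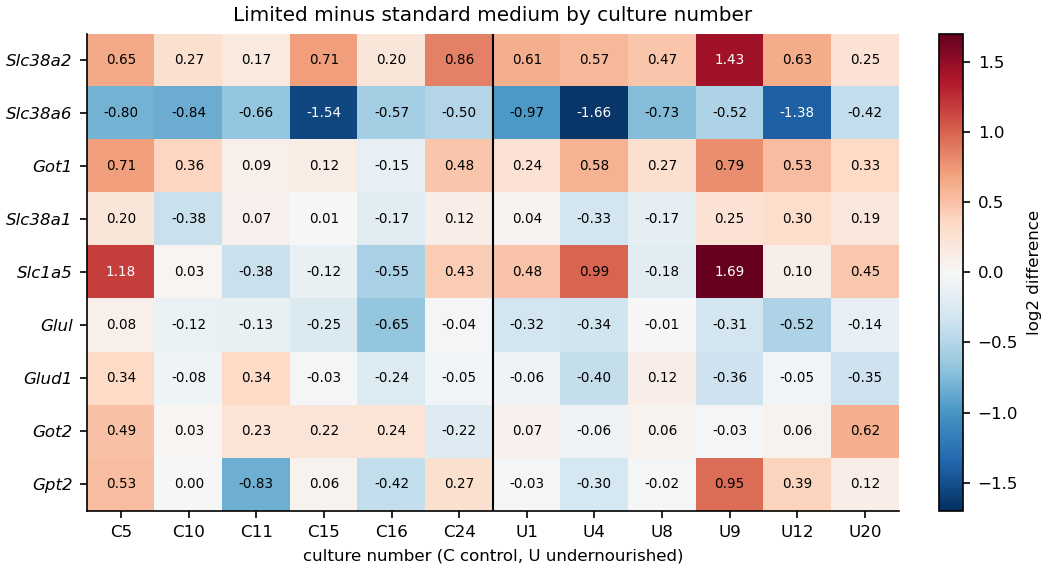
Log2 difference between the limited and the standard array of each culture number (columns, control cultures left and undernourished right) for the 9 genes (rows); red is higher and blue lower in limited medium. Slc38a2 is higher in all 12 columns and Slc38a6 lower in all 12, with Got1 higher in 11.

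Within cultures, the 9 genes did not all move in 1 direction. In control culture 5, 8 of the 9 genes were higher in limited medium, and in control culture 16 only 2 were, Slc38a2 and Got2. Undernourished culture 9 had the largest differences of Slc38a2 (1.43), Slc1a5 (1.69), Got1 (0.79) and Gpt2 (0.95), and its standard array was the lowest of its group for Slc38a2 (10.31) and Gpt2 (8.49). The arrays numbered 9 correlated at -0.11 in their deviations from group means, so these may not be differences within the same culture. The fibroblast genes of that culture averaged 6.20 on the standard and 5.44 on the limited array, a larger difference than in any other culture. Their part in its values was not tested.

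Within control cultures, none of the 9 genes passed the threshold, against 0.343% of all genes called. Slc38a6 differed by -0.82 ± 0.20 (adjusted p = 0.0618, limma), Slc38a2 by 0.48 ± 0.13 (adjusted p = 0.105) and Got1 by 0.27 ± 0.12 (adjusted p = 0.348), and these 3 had an unadjusted p under 0.05. In these cultures Slc38a6 did pass with array weights (adjusted p = 0.0350, limma) and once genes below the median level were dropped (0.0403). It also passed with the culture number as a block (0.0136). More of all genes were called under these settings too, as given in the last section. Slc38a2 was among the 1.19% of genes whose media did not overlap in these cultures. Within undernourished cultures, 2 of 9 were called, against 1.46% of all genes. Slc38a2 rose by 0.66 ± 0.13 (adjusted p = 0.0120) and Slc38a6 fell by 0.95 ± 0.20 (adjusted p = 0.0156), the latter among the 1.09% of genes whose media did not overlap there. Got1 differed by 0.46 ± 0.12 (adjusted p = 0.0566) and Slc1a5 by 0.59 ± 0.28 (adjusted p = 0.364).

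The calls within undernourished cultures depended on which cultures were included. Slc38a2 no longer passed without culture 9 (0.51, adjusted p = 0.0521), 4 (0.68, adjusted p = 0.0561) or 12 (0.67, adjusted p = 0.0542), and Slc38a6 no longer passed without culture 4 (-0.81, adjusted p = 0.0928), 1 (-0.94, adjusted p = 0.0507) or 12 (-0.86, adjusted p = 0.0910). With all 6 cultures they were 0.66 and -0.95. Without cultures 9 and 12 together, Slc38a2 differed by 0.47 ± 0.14 (adjusted p = 0.207) and Slc38a6 by -0.95 ± 0.24 (adjusted p = 0.154), so neither was called. Got1 passed without culture 20 (0.48, adjusted p = 0.0184) and without cultures 16 and 20 (adjusted p = 0.0148). Its call turned on processing too. It passed with array weights (adjusted p = 0.0249), after quantile normalization (0.0479) and once genes below the median level were dropped (0.0341). It also passed with the culture number as a block (adjusted p = 0.0174, limma), though the numbers do not pair the arrays for certain. It did not pass with all clusters averaged (adjusted p = 0.0574), with the title number (0.0630) or without cultures 9 and 12 (0.408).

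That a gene passed in undernourished and not in control cultures does not show that its response differed between them, and the test of that difference called none of the 9 genes and 0.0% of all genes (limma), with 643 of 22180 genes at an unadjusted p under 0.05. The response of Slc38a2 was larger in undernourished cultures by 0.18 ± 0.19, that of Got1 by 0.19 ± 0.17 and that of Slc1a5 by 0.49 ± 0.40, each at an adjusted p of 0.9998 (limma). For Slc38a6, at -0.82 in control and -0.95 in undernourished cultures, the difference of the differences was -0.13 ± 0.28. Without culture 9, that of Slc38a2 was 0.029 ± 0.16 and that of Slc1a5 0.27 ± 0.40, and without control culture 16 that of Got1 was 0.11. Without culture 4, that of Slc38a6 was 0.014 ± 0.27. For Slc38a2 the 95% interval ran from -0.20 to 0.57, so neither an equal response nor a larger one is excluded. Over the 9 genes these differences ran from -0.23 for Glud1 to 0.49 for Slc1a5, and none had an unadjusted p under 0.05.

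Maternal diet changed none of the 9 genes past the threshold, in either medium or over both. In standard medium 0.0% of all genes were called (697 of 22180 at an unadjusted p under 0.05, limma). Glud1 alone of the 9 genes had an unadjusted p under that limit, and it was higher in undernourished cultures by 0.25 ± 0.11 (adjusted p = 0.9998, limma). In limited medium 0.0% were called (1206 at an unadjusted p under 0.05). There Slc38a2 was higher in undernourished cultures by 0.34 ± 0.13, Got1 by 0.28 ± 0.12 and Slc1a5 by 0.58 ± 0.28, each with an adjusted p of 0.894 (limma). Over the means of both media, with 6 cultures against 6, 0.0% were called (791 at an unadjusted p under 0.05), and Slc38a2 differed by 0.25 ± 0.09 (adjusted p = 0.999, limma). The 95% intervals of these Slc38a2 differences ran from 0.067 to 0.61 in limited medium and from 0.057 to 0.44 over both media. They are not adjusted for the 22180 genes tested, and neither difference passed once adjusted.

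The rest of the pathway was read from 4 lists. Of 14 other carriers of glutamine and neutral amino acids, 1 rose and none fell, against 6.84% of all genes called in either direction: Slc1a4, a neutral amino acid exchanger of the family of Slc1a5, by 0.64 ± 0.17 (adjusted p = 0.0243, limma), in 11 of 12 cultures. Slc7a5 and Slc3a2, the light and heavy chains of a large neutral amino acid exchanger that gives out glutamine, differed by 0.22 ± 0.15 and 0.32 ± 0.13 and did not pass (adjusted p = 0.462 and 0.149). Of 9 measured enzymes that use glutamine, none passed. Asns, the asparagine synthetase, differed by 0.09 ± 0.15 (adjusted p = 0.799). The median differences of these lists were 0.08 and 0.01.

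Of 18 measured enzymes that make or use glutamate, out of 19 listed, 2 rose and none fell. Bcat2, the mitochondrial branched-chain aminotransferase, rose by 0.40 ± 0.07 (adjusted p = 0.00137, limma), in 12 of 12 cultures, from 7.61 ± 0.17 to 8.00 ± 0.10 in control and from 7.63 ± 0.16 to 8.04 ± 0.23 in undernourished cultures (SD, n = 6). Oat, the ornithine aminotransferase, rose by 0.50 ± 0.12 (adjusted p = 0.0101), in 10 of 12 cultures. Bcat1, the cytosolic counterpart of Bcat2, differed by 0.68 ± 0.23 and did not pass (adjusted p = 0.0813). Of 11 glutamate carriers and shuttle genes, 2 rose and none fell. Slc7a11, the cystine-glutamate exchanger, rose by 1.33 ± 0.33 (adjusted p = 0.0152), in 10 of 12 cultures, and Mdh1, the cytosolic malate dehydrogenase that works beside Got1 in the malate-aspartate shuttle, rose by 0.34 ± 0.09 (adjusted p = 0.0264), in 11 of 12. The median differences of these lists were 0.11 and 0.09, against 0.0052 over all genes, and the shares called can be read against the 6.84% above. Within undernourished cultures Bcat2 was the only gene of the 4 lists to pass (0.41 ± 0.10, adjusted p = 0.0409), and within control cultures none did.

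**Figure D5:**
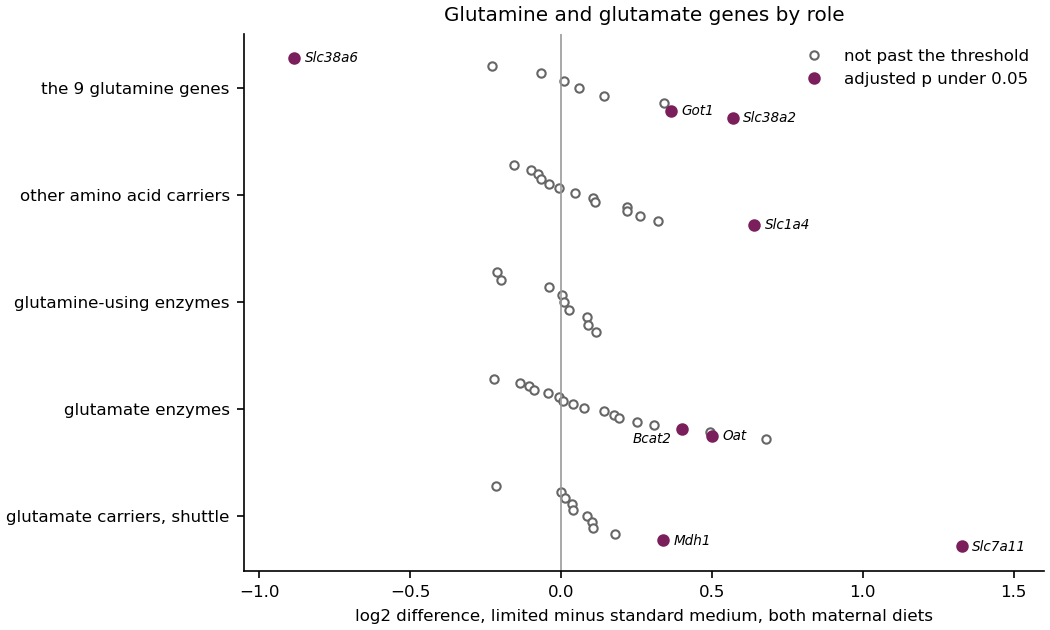
Log2 difference between limited and standard medium over both maternal diets for the 9 genes and for 4 lists of related carriers and enzymes; each point is a gene, and filled points have an adjusted p under 0.05. The filled points outside the 9 genes are Slc1a4 (0.64), Bcat2 (0.40), Oat (0.50), Mdh1 (0.34) and Slc7a11 (1.33), and Slc38a6 (-0.88) is the only filled point below zero.

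The genes whose signals followed each of the 9 most closely over the 24 arrays were sought in the brighter part of the data (the 10333 genes with a mean of at least 6.02 whose symbols are not of gene models, clones, small RNAs or olfactory and vomeronasal receptors), by Pearson's r, as a description. The arrays share cultures and media, so a common response to either raises r. For Slc38a2 they were Sesn2 (r = 0.92), Chac1 (0.92) and Glce (0.91). For Slc38a6 they were Denn2b (0.90), Malt1 (0.88) and Chd6 (0.87), and for Got1 they were Pi4k2a (0.89), Tmem41b (0.89) and Afg3l2 (0.89). All 3 neighbours of Slc38a2 rose with the medium and all 3 of Slc38a6 fell, among them Chac1 (1.08, adjusted p = 0.0015, limma) and Malt1 (-0.71, adjusted p = 0.0012). For Slc1a5 the closest were Creld1 (0.93), Shmt2 (0.93) and Serf2 (0.92), for Slc38a1 Cfap52 (0.84), Egln3 (0.79) and Popdc3 (0.74), and for Glul Nt5c2 (0.82), Ddc (0.79) and Erlin2 (0.78). For Glud1 they were Med30 (0.78), Chmp2b (0.78) and Gla (0.77), for Got2 Zdhhc7 (0.89), Atp5d (0.86) and G6pc3 (0.85), and for Gpt2 Hcfc2 (0.85), Fgf21 (0.83) and Cyb5b (0.83). None of the 9 genes was among the 3 closest of another.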

How the data were processed

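RNA of primary muscle cells was measured on 24 single-colour arrays, 1 per sample, in 4 groups of 6. Per the labels, Trizol was used to extract the RNA and the WT PLUS protocol to biotinylate it. The deposited log2 values of 41345 transcript clusters (sets of probes) were made by the authors with RMA (background correction, quantile normalization and probe summary) in Affymetrix Expression Console, per the submitters' processing notes; the sources used here name no version or genome build, and they leave unstated the base of the logarithm, read as 2 from values of 1.69 to 14.1. Clusters were named through the platform's annotation, with symbols updated through RefSeq (GRCm38.p6): 23521 had 1 symbol, 1814 several and 16010 none here. Only the first were used, with the highest-mean cluster for each of 1082 genes with several, which left 22180 genes and no filter on dim ones.

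Differences were tested with limma (version 3.58.1, R 4.3.3; lmFit and eBayes) on all 24 arrays in 4 groups, or on 12 culture means for maternal diet over both media. All p-values are two-sided, adjusted by Benjamini-Hochberg over all genes, with a threshold of 0.05, and the procedure was tested on simulated data. Differences carry the standard error of the fit. Since the labels do not say what separates samples of a group, p-values rest on a spread that may be partly technical; precision is limited by how many arrays there are. Levels of different genes or marker lists were not ranked against each other, since probes differ in brightness.

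The 9 genes, the related lists, the marker lists and the promoter motif were chosen with earlier results of these data known. All 9 genes are named in every comparison; of each list, called genes up to 4 per comparison; and for each of the 9, the 3 genes with the highest Pearson r over 24 arrays. Slc7a5, Slc3a2, Asns and Bcat1 were named after their values were seen. Ctps1 was matched as Ctps. Alternatives were quantile normalization of the deposited values, only genes at or above the median level of 6.02, array weights, the mean of all clusters of a gene, an adjusted p under 0.1, the second number of the titles as a covariate, a block for the culture number, leaving out each culture, leaving out cultures 16 and 20, and leaving out cultures 9 and 12, the last chosen after seeing the data.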

Additional observations from a re-analysis of the deposited data

Results flagged for a closer look

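Levels and differences of the 9 genes were searched for a sample far from the others of its group of 6, by the ratio of its gap to the group's whole range against Dixon's 95% critical value. Of 54 groups tested, 7 had such a sample, where chance marks about 1 group in 20. The groups are not independent, since differences come from the same arrays as levels, so the count cannot be set against that rate. None of these values was explained or removed.

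Undernourished culture 9 had the lowest Slc38a2 signal of its standard group, 10.31 against 10.83 for the nearest, and the largest Slc38a2 difference between media, 1.43 against 0.63. Its arrays did not deviate together, so that difference may not lie within the same culture. Undernourished culture 20 had the lowest Slc38a2 signal of its limited group, 11.07 against 11.60. The same culture had the lowest Got2 signal of its standard group, 11.06 against 11.66, and the largest Got2 difference between media, 0.62 against 0.070. Control culture 24 had the highest Glud1 signal of its limited group, 9.98 against 9.74. Control culture 15 had the largest fall of Slc38a6 among control cultures, -1.54 against -0.84.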

How the results depend on the processing

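The 3 changes over both maternal diets held when any 1 of the 12 cultures was left out, with the highest adjusted p at 0.00334 for Slc38a2, 0.00264 for Slc38a6 and 0.0401 for Got1, and under every other setting except that Got1 did not pass without cultures 9 and 12 (adjusted p = 0.0753). Of 1287 values of the 9 genes under alternatives, 71 had the opposite sign to the reported one, none of them called in either setting and none over 0.27 in size; 12 passed only under the alternative and 9 only as reported. The culture numbers do not pair the arrays for certain: the arrays of a number correlated in their deviations from group means by -0.11 to 0.66, and 10 of 12 numbers matched their own best. With the number as a replicate block, 4 of the 9 genes were called over both diets, Glul joining at an adjusted p of 0.0314, 1 in control cultures (Slc38a6, 0.0136) and 3 in undernourished cultures (Got1 joining at 0.0174). Genes called over both diets then numbered 2597, in control cultures 551 and in undernourished cultures 1007. The cause of the shifts below was not tested, and small differences near zero have no settled sign.

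Over both diets, 2325 genes were called at an adjusted p under 0.1, 909 without cultures 9 and 12, and 991 to 1603 with a culture left out. In control cultures the counts were 253 at an adjusted p under 0.1, 149 when genes below the median level were left out, 275 with array weights, 115 without cultures 16 and 20, 39 without cultures 9 and 12, and 10 to 162 with a culture left out; 1 of the 9 genes, Slc38a6, passed under each of the first 3 of these settings. In undernourished cultures they were 622 at an adjusted p under 0.1, 571 with array weights, 494 without cultures 16 and 20, 10 without cultures 9 and 12, which left 0 of the 9 genes called, and 51 to 469 with a culture left out, with 0 to 3 of the 9 genes. For maternal diet in limited medium, 1 gene was called with array weights, 2 without cultures 16 and 20, and 0 to 2 with a culture left out. In control cultures the share of called genes that rose was 48.7%, and 37.8% after quantile normalization.

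Values of opposite sign, all on the log2 scale, were as follows, with the range over the left-out cultures where one of these changed the sign. For the medium over both diets, Slc38a1 was -0.024 with array weights, -0.021 after quantile normalization, -0.046 without cultures 9 and 12, and -0.014 to 0.049; Gpt2 was -0.062 without cultures 9 and 12, and -0.017 to 0.14. In control cultures, Slc38a1 was 0.019 with the title number, 0.0033 without cultures 16 and 20, and -0.072 to 0.044; Gpt2 was 0.0074 without cultures 16 and 20, and -0.18 to 0.090; Glul was 0.013 with all clusters averaged; Glud1 ran from -0.011 to 0.10 and Slc1a5 from -0.12 to 0.23. In undernourished cultures, Slc38a1 was -0.0092 with array weights, -0.065 without cultures 9 and 12, and -0.0022 to 0.12, and Gpt2 was -0.061 without cultures 9 and 12. For the difference of the response between diets, without cultures 9 and 12 Got2 was 0.0075, Slc38a1 -0.039 and Slc38a2 -0.0025; Got2 ran from -0.14 to 0.021 and Slc38a6 from -0.27 to 0.014. For maternal diet in standard medium, Glul was -0.043 with array weights, -0.028 after quantile normalization, -0.036 with the title number, and -0.071 to 0.060; Slc38a1 was 0.033 with array weights, 0.16 without cultures 16 and 20, and -0.31 to 0.22. There Got2 ran from -0.0084 to 0.18, Gpt2 from -0.043 to 0.28, Slc1a5 from -0.079 to 0.28 and Slc38a6 from -0.24 to 0.0022. In limited medium, Glud1 was -0.0063 with the title number, and -0.0047 to 0.071; Got2 was -0.0090 with array weights, -0.044 with all clusters averaged, -0.010 with the title number, and -0.042 to 0.071; Slc38a1 was 0.063 with array weights, 0.17 without cultures 16 and 20, and -0.19 to 0.27. Over both media, Glul was 0.0092 without cultures 9 and 12, and -0.12 to 0.030; Got2 was -0.021 with all clusters averaged, and -0.025 to 0.11; Slc38a1 was 0.027 with array weights, 0.16 without cultures 16 and 20, and -0.25 to 0.24.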
